A study of Rattus norvegicus with 16 samples.

Results

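The mammalian apparent LTR retrotransposons (MaLRs) of rodents are the repeat names ORR1 and MT, and small RNA counts on them were examined in sorted rat germ cells. Members were every repeat name that began with ORR1 or with MT followed by a letter from A to E, MT2 names not being among them. There were 44 such names of 997 repeat names listed. Of these, 27 were ORR1 names (13 LTR and 14 internal) and 17 were MT names (8 LTR and 9 internal), running from ORR1A to ORR1G and from MTB to MTE. Together they covered 340094 annotated copies, or 9.90% of all repeat copies, and 95687465 bases, or 9.65% of all repeat bases of the rn5 annotation.

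MaLRs are old relatives of endogenous retroviruses. A full element has a long terminal repeat (LTR), which carries the promoter, at each end of an internal part that codes for no known protein, and most copies in rodent genomes are lone LTRs left by recombination between the ends. The letters run broadly from the youngest subfamilies (A) to the oldest. In mice MT and ORR1 LTRs are known as promoters of transcripts in oocytes and early embryos. Male germ cells make PIWI-interacting RNAs (piRNAs), small RNAs of about the size sequenced here that guide PIWI proteins to transposon transcripts.

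The study asked whether a paternal diet alters germ cell RNA. Male GC-eGFP Sprague-Dawley rats, whose germ cells carry an eGFP transgene, were fed a high fat diet (HFD, 40% of calories from fat in the labels, where the paper states a higher share) or a control diet (CD, 10%) to 19 weeks of age, and testicular germ cells were sorted by eGFP. Each diet had 4 small RNA libraries and 4 mRNA libraries, 16 in all. All 8 small RNA libraries came from animals with the transgene. The study gives its reads per animal, with no mention of pooled animals for these libraries. A p-value measures the spread between these libraries. The labelled cell type was not checked against marker genes, because 0 of 26560 gene identifiers could be paired with a symbol.

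Counts on repeat names were between 2363595 and 3269169 per library, and those on MaLR names between 416299 and 573876. The values of a name sum reads over all its copies, on either strand. The paper states that uniquely aligned reads were counted. If that holds for these counts, reads fitting several near-identical copies would be absent, which was not checked here. The part of such reads in the differences between young and old names was not tested. Levels are given as CPM, counts per 1000000 repeat counts of the library, and for comparisons between names as CPM per kb of listed length, called counts per kb below.

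MaLR names held more small RNA counts than their share of repeat bases. Over the 8 libraries they took between 17.1% and 18.1% of repeat counts. A single LTR name, ORR1F, was the repeat name with the most counts of all 997 in each of the 8 libraries, with 155247 to 234933 counts. It held 39.1% of MaLR counts on 4.93% of MaLR bases. The 8 MaLR names with the most counts together held 80.0% of MaLR counts on 40.2% of MaLR bases, and ORR1 names had 2.20 counts per kb against 1.43 for MT names.

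ORR1F is an LTR of the second oldest ORR1 letter, annotated at 22516 places with a mean length of 209 bases. In HFD libraries 1 to 4 its levels were 65928, 70078, 68291 and 73956 CPM. In CD libraries 1 to 4 they were 67574, 69526, 71758 and 61743 CPM. The highest library was HFD replicate 4 and the lowest CD replicate 4, and the other libraries of the diets lay among each other. Per kb the level was 14.6 ± 0.790 (SD, n = 8 libraries), which ranked 31 of 997 names, and 12 of the 522 names with at least 100000 bases.

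ORR1F-int, the internal part of the same subfamily, was far rarer, with 364 annotated copies and 143798 bases. Its levels were 9234, 9606, 9048 and 9475 CPM in HFD libraries 1 to 4. They were 9703, 9683, 9213 and 8922 CPM in CD libraries 1 to 4. The diets overlapped, and the coefficient of variation over the 8 libraries was 3.18%. Per kb its level was 65.1 ± 2.07 (SD, n = 8), the highest of the 44 MaLR names, rank 11 of all 997 names and rank 1 of the 522 names with at least 100000 bases. The next MaLR name after ORR1F and ORR1F-int was MTEb, at 3.97 ± 0.110 counts per kb.

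**Figure D1:**
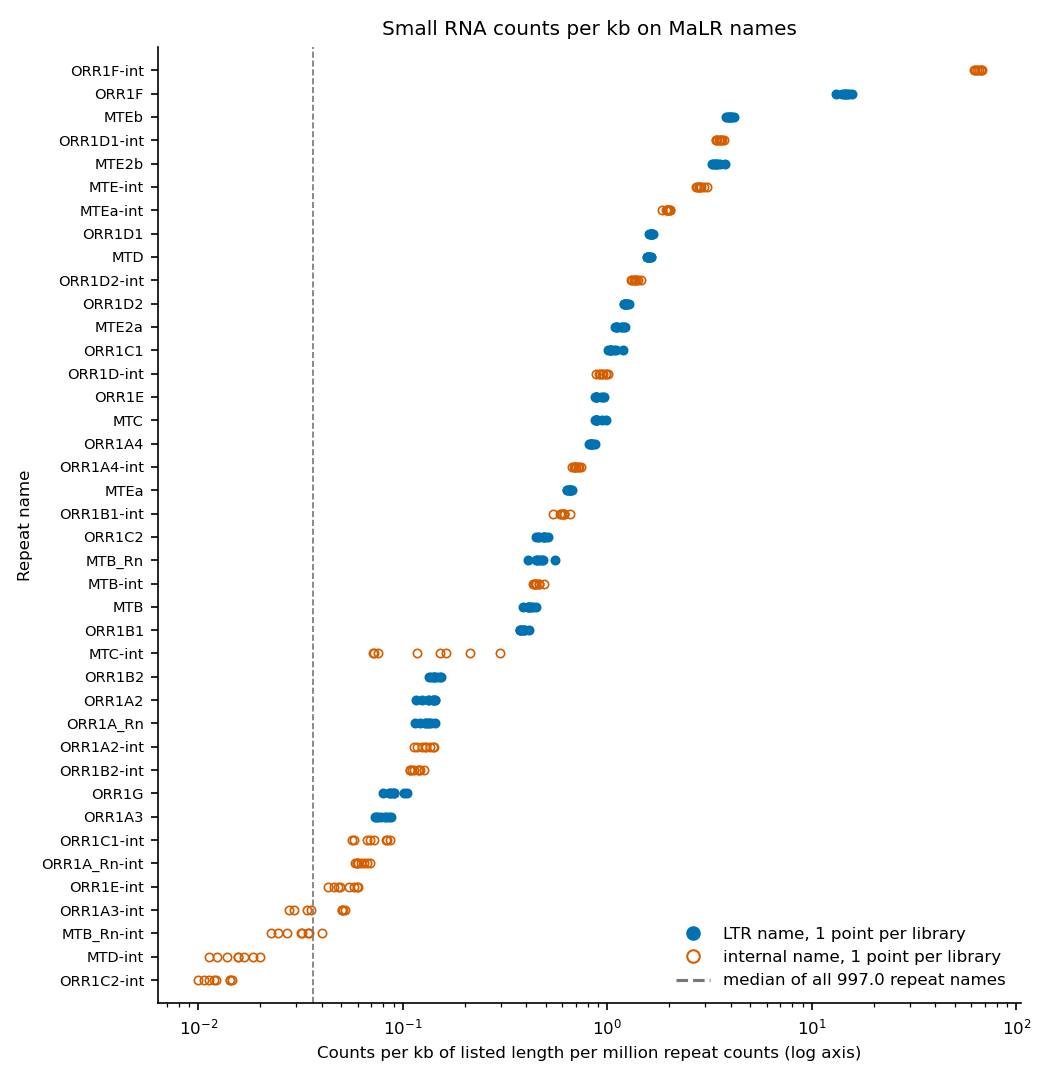
Counts per kb of listed length (CPM per kb, log axis) of the 40 MaLR names with a mean count of at least 10, 1 point per library, with LTR names as filled and internal names as open points. ORR1F-int and ORR1F stand to the right of all other names in every library, MTC-int has the widest scatter, and most names lie to the right of the median of all 997 repeat names (dashed line).

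The levels of LTR names followed the letters in part, and those of internal names ran in a partly different order. The median level over the 44 MaLR names was 0.461 counts per kb, against 0.0362 over all 997 names, and 37 of the 44 were above the latter. A mean count of at least 1 was reached by 755 of the 997 names and by 43 of the 44. Names with almost no counts thus lower the median of all names more. LTRs of the oldest MT letter, MTE, had 2.00 counts per kb over 4 names, followed by MTD with 1.59, MTC with 0.902 and MTB with 0.450. Library ranges of neighbours among these 4 groups did not overlap. Among ORR1 LTRs the order was ORR1F (14.6), ORR1D (1.46), ORR1E (0.904), ORR1C (0.742), ORR1A (0.352), ORR1B (0.305) and ORR1G (0.0908), again with no overlap between neighbours. ORR1G, whose letter follows ORR1F, had the lowest level of the ORR1 LTR groups, below the youngest letters, A and B. Internal groups of MT had 1.98 counts per kb for MTE, 0.189 for MTB, 0.145 for MTC and 0.0154 for MTD, so that MTD was the lowest of these. Among ORR1 internal groups, ORR1E (0.0522) and ORR1C (0.0425) lay below ORR1B (0.469) and ORR1A (0.268).

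Within a letter the names differed as well. Of the MTE LTRs, MTEb (3.97) and MTE2b (3.42) had more counts per kb than MTE2a (1.15) and MTEa (0.652). MTD, the MaLR name with the most copies (49601), was second to ORR1F in counts, with 12.2% of MaLR counts, and varied little: its levels were 20914, 21295, 21051 and 21103 CPM in HFD libraries and 21905, 21413, 20890 and 21946 CPM in CD libraries. Of the ORR1A LTRs, ORR1A4 (0.835 counts per kb) lay above ORR1A2 (0.134), ORR1A_Rn (0.130) and ORR1A3 (0.0796). The library ranges of ORR1A2, ORR1A_Rn and ORR1B2 (0.144) overlapped, and that of ORR1A3 lay below them.

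Internal names were compared with LTR names per kb. Summed over names, internal parts had 1.34 ± 0.0217 counts per kb (SD, n = 8, 23 names) and LTRs 1.94 ± 0.0356 (21 names), a log2 ratio of -0.54 ± 0.0184. The ratio was below 0 in 8 of 8 libraries, and an exact two-sided sign-flip permutation test over libraries gave p = 0.0078, the smallest it can give. The p does not cover the spread between names, which are the same in every library. As a median over names the log2 ratio was -3.07. Counted per listed copy the ratio was reversed, at 0.52, internal copies being the longer ones on average in this annotation. Internal names held 12.7% ± 0.130 of MaLR counts in HFD and 12.8% ± 0.141 in CD (SD, n = 4 each), on 17.5% of MaLR bases.

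The summed ratio hid subfamilies that went opposite ways. Of 21 subfamilies with both an LTR and an internal row of the same name, 6 had more counts per kb on the internal row in all 8 libraries, 14 had more on the LTR in all 8, and ORR1A2 had neither (0.129 internal, 0.134 LTR). The internal row was 4.47-fold higher for ORR1F, 3.01-fold for MTEa (1.96 against 0.652) and 2.16-fold for ORR1D1 (3.53 against 1.63). ORR1B1, ORR1D2 and MTB were the other three, at 1.56-, 1.11- and 1.09-fold.

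In the opposite direction, the LTR had 501-fold more counts per kb than the internal row for MTEb, 465-fold more for MTE2b, 103-fold more for MTD and 80.9-fold more for MTE2a. The internal rows of MTEb, MTE2b and MTE2a each had a mean of about 7 counts per library (6.75, 6.75 and 7.12), so that these ratios rest on few counts on that side, while MTD-int had 46.5. MTEa and MTEb, which share a letter, thus differed in which row was the higher. ORR1G-int had 1 count in all 8 libraries together, under the floor of 3 counts, and is given no ratio. The generic row MTE-int, which has no LTR of the same name, had 2.85 ± 0.111 counts per kb, and ORR1D-int had 0.946 ± 0.0423. MTE-int has 5075 copies, against 614 for MTEb-int, 704 for MTE2b-int and 420 for MTE2a-int. With MTE-int included, MTE internal rows had 1.98 counts per kb and MTE LTRs 2.00, with overlapping library ranges. The large folds of MTEb, MTE2b and MTE2a thus hold for rows of the same name and not for MTE as a whole.

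**Figure D2:**
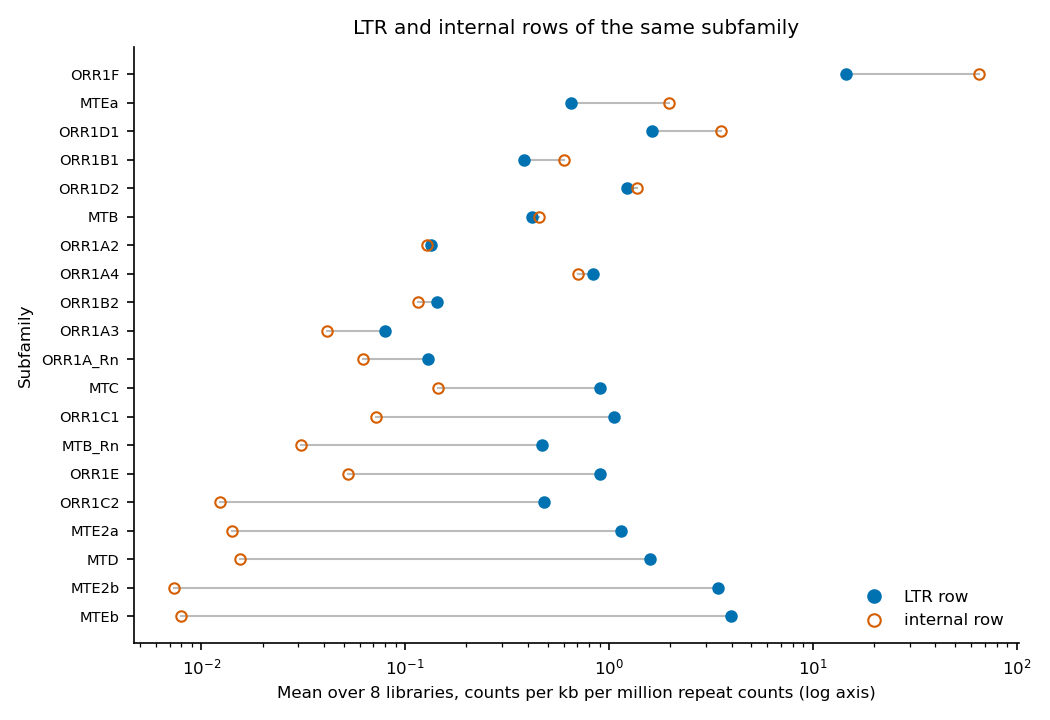
Mean counts per kb (CPM per kb) over 8 libraries (log axis) of the LTR row (filled) and the internal row (open) of 20 subfamilies, with ORR1G left out for its single internal count. The internal row lies to the right for the 6 subfamilies at the top, from ORR1F to MTB, and more than 100-fold to the left for MTD, MTE2b and MTEb at the bottom.

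Against other repeats, MaLR names had 1.83 ± 0.0323 counts per kb and all 953 other names 0.920 ± 0.00345, a log2 ratio of 0.99. Without ORR1F and ORR1F-int, an alternative chosen after the data were seen, the log2 ratio was 0.22, still above 0 in 8 of 8 libraries. The 119 names that begin with L1 or Lx, which are LINE elements, had 0.313 ± 0.00291 counts per kb (log2 ratio 2.55). The 149 RMER and RLTR names, other rodent LTR repeats, had 1.58 ± 0.0104 (log2 ratio 0.21). The 74 names that begin with MLT or MST, older mammalian LTR repeats that include MaLRs, had 2.85 ± 0.0444, more than the rodent MaLR names (log2 ratio -0.64).

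Each of these 4 comparisons had the same sign in 8 of 8 libraries and gave p = 0.0078 in the exact two-sided sign-flip permutation test, 0.0078 also after Benjamini-Hochberg adjustment over the 4. These p-values cover the spread between libraries and not that between names, which are the same in every library. Some of the comparisons depended on which names or summary were used. Without ORR1F and ORR1F-int, MaLR names had fewer counts per kb than RMER and RLTR names (log2 ratio -0.56). In each such ratio these dense names were left out on the MaLR side only, which could only lower it. With all names, the ratio to RMER and RLTR names was 0.025 per listed copy, above 0 in 6 of 8 libraries (exact sign-flip permutation p = 0.047). As a median over names it was 3.34. Against MLT and MST names the log2 ratio was -1.41 without ORR1F and ORR1F-int and -0.24 per listed copy, and as a median over names MaLR names lay above them (3.25). Against L1 and Lx names it was 1.51 per listed copy, and against all other names 3.77 as a median over names. The median over all other names includes names with a mean count under 1.

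The diets were then compared for the share of repeat counts on MaLR names. The share was 17.2%, 17.6%, 17.4% and 18.1% in HFD libraries 1 to 4 and 17.6%, 17.6%, 17.8% and 17.1% in CD libraries 1 to 4. The HFD values enclosed those of CD but for its lowest, and the means were 17.6% ± 0.371 and 17.5% ± 0.290 (SD, n = 4 each). The difference was 0.0381 percentage points, with p = 0.886 in the exact two-sided permutation test, whose smallest possible p is 0.0286. Without ORR1F and ORR1F-int the share was 9.62% to 9.72% in HFD and 9.70% to 10.1% in CD. That turned the difference to -0.149 percentage points (exact permutation p = 0.171). Leaving out HFD replicate 4 turned it to -0.129, and leaving out CD replicate 4 to -0.0972.

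**Figure D3:**
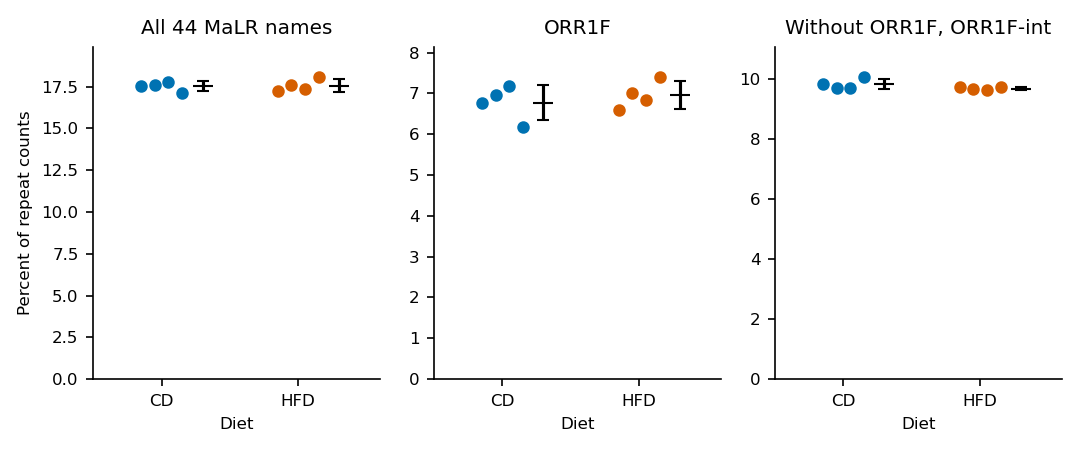
Percent of repeat counts on all 44 MaLR names (left), on ORR1F alone (middle) and on MaLR names without ORR1F and ORR1F-int (right), with 1 point per library by diet and the mean with its SD (n = 4) beside them. CD replicate 4 is lowest for ORR1F, at 6.17%, and highest without it, at 10.1%, and the diets overlap in all 3 panels.

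The internal share of MaLR counts also did not pass the test, with a difference of -0.124 percentage points (exact permutation p = 0.229). The names were grouped into 22 sets by letter and by LTR or internal part, and 0 of the 22 differed between diets in their share of MaLR counts after adjustment, with all adjusted p = 1 (exact permutation tests). The smallest unadjusted p was 0.286, for ORR1G LTRs.

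No MaLR name passed the test for diet. In edgeR's quasi-likelihood test over all 755 repeat names with a mean count of at least 1, 0 of 43 MaLR names had an adjusted p under 0.05, where 0.132% of all names did, and DESeq2 called 0 as well. At an unadjusted p under 0.05 there was 1 MaLR name by either tool, where 3.58% of all names passed in edgeR. Fitted changes were upward in HFD for 27 names and downward for 16, with a median log2 fold change of 0.016 against 0.0053 over all names. The 95% confidence interval lay within ±0.1 on the log2 scale for 11 names, within ±0.2 for 25 and within ±0.5 for 36.

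The name with the smallest p was MTE2a, an LTR of the oldest MT letter. Its levels were 4250, 4318, 4327 and 4291 CPM in HFD libraries 1 to 4. In CD libraries 1 to 4 they were 4546, 4714, 4575 and 4695 CPM. Every HFD library was below every CD library, and the spread within each diet was smaller than the gap between the means. The log2 fold change was -0.10 (SE 0.030, 95% interval -0.17 to -0.031), with an edgeR p of 0.0080 before and 0.992 after adjustment over all names. A diet gap with no overlap was also seen for ORR1D1, and so for 2 MaLR names, where 2.12% of all 755 names had one.

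ORR1D1, an LTR with 20636 copies, was the steadiest MaLR name, with a coefficient of variation of 1.42% over 8 libraries. Its levels were 8044, 7959, 8014 and 7881 CPM in HFD and 8158, 8237, 8093 and 8131 CPM in CD. All 4 HFD values lay below the lowest CD value, yet the fitted log2 fold change after TMM scaling was -0.022 (95% interval -0.086 to 0.042). ORR1D1 was named for this gap after its values were seen, and by the rule for the names with the most counts.

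MTC-int, the internal part of MTC, was the most variable name with a mean count of at least 100. It had 673, 612, 401 and 1620 counts in HFD libraries 1 to 4 and 520, 1088, 361 and 307 counts in CD libraries 1 to 4. HFD replicate 4 and CD replicate 2 were the high libraries, 1 in each diet, and the coefficient of variation of its CPM was 55.2%. Its LTR, MTC, varied by 4.23%. The log2 fold change of MTC-int was 0.52 (95% interval -0.41 to 1.46), and it lay between 0.10 and 0.98 when each library was left out, lowest without HFD replicate 4.

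The other 34 names with a mean count of at least 100 had log2 fold changes between -0.10 and 0.11. Their coefficients of variation over the 8 libraries were 1.42% to 16.2%, with a median of 4.24%. ORR1F, for all its counts, had a log2 fold change of 0.050 (95% interval -0.074 to 0.17), and ORR1F-int one of 0.0035 (95% interval -0.093 to 0.100). The sign of either turned when single libraries were left out.

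**Figure D4:**
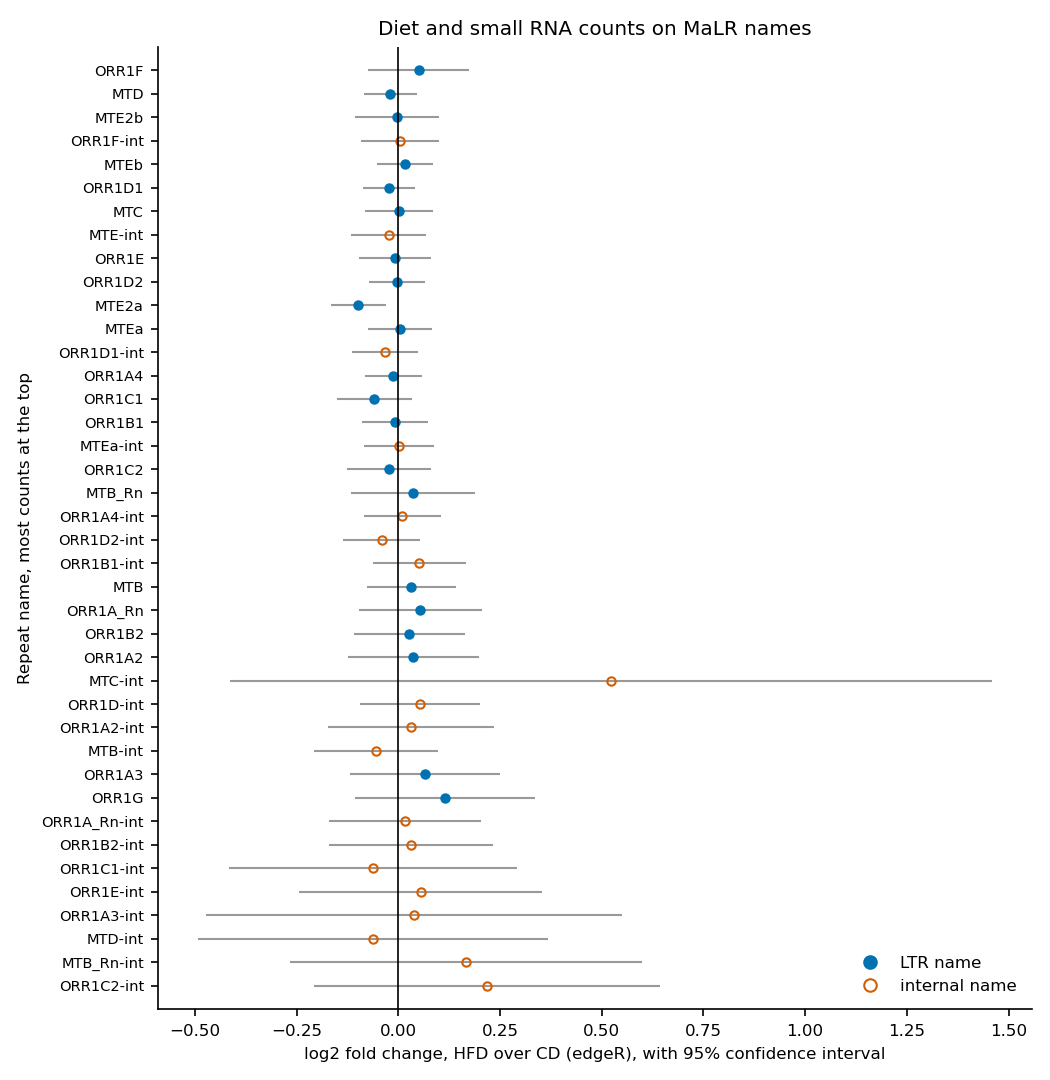
log2 fold change of HFD over CD with its 95% confidence interval (edgeR, 4 libraries per diet) for the 40 MaLR names with a mean count of at least 10, ordered by counts with the most at the top. The interval includes 0 for all names plotted but MTE2a, whose adjusted p is 0.992, and is widest for MTC-int.

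The piRNA tables give places for single sequences, and so show individual MaLR copies. They list 58165 entries, of which 50830 have 1 listed place. Of these, 7508 lay wholly inside a copy of any repeat name and 1367 inside a MaLR copy, in 197 copies. Only 217 of the 1367 had any count. They held 104023 of 8359682 piRNA counts over the 8 libraries, from 11179 to 15274 counts per library. All entries are annotated on the plus strand and were counted on the reverse strand, so that these counts are of minus-strand reads only.

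MaLR entries took 1.24% ± 0.0100 of piRNA counts in HFD and 1.24% ± 0.0288 in CD (SD, n = 4 each; exact permutation p = 0.943). The sign of the difference, 0.000996 percentage points, turned when single libraries were left out. They made up 18.2% of the entries inside repeats and 11.4% of the counts of such entries.

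The counts came from few copies. Some count fell in 119 copies, and 12 copies held 65.5% of MaLR entry counts. The first was a 207 base ORR1C1 copy on chromosome 20 (rn5 8847072 to 8847278, minus strand), with 14.9% of them on a single entry, rat_piRNA_81278. It lay outside genes, 32481 bases from the nearest Ensembl gene. The entry had 1688, 1647, 2071 and 2092 counts in HFD libraries 1 to 4 and 1785, 1952, 2106 and 2123 counts in CD libraries 1 to 4. As CPM of the piRNA total (piRNA CPM) that was 1777 ± 78.3 in HFD and 1942 ± 205 in CD, with overlapping diets. This 1 copy accounted for most of the 16581 entry counts in ORR1C1, against 48445 counts on the name ORR1C1 over both strands and all copies.

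An ORR1A4 copy on chromosome 15 (rn5 240752 to 241095, plus strand) was second, with 9112 counts, 8511 of them on the entry rat_piRNA_71969. Its distance to the nearest gene was 17077 bases. It stood at 1097 ± 116 piRNA CPM in HFD and 1080 ± 94.98 in CD. ORR1A4 is one of the youngest subfamilies in the table, and its entries held 17.5% as many counts as its repeat row.

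The next copies by counts were neighbours on chromosome 6. A 1363 base ORR1F-int copy (rn5 131592591 to 131593953, plus strand) held all 131 entries found inside ORR1F-int copies, 10 of them with counts and 7957 counts in sum. The ORR1F LTR that follows it without a gap (rn5 131593954 to 131594327) held 38 entries and 5636 counts. The nearest gene was 39419 bases from that LTR. Its main entry, rat_piRNA_158991, had 479, 608, 923 and 951 counts in HFD libraries and 362, 882, 808 and 439 counts in CD libraries. CD replicates 1 and 4 were low and the diets overlapped (log2 fold change 0.19, 95% interval -0.24 to 0.61).

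Where counted MaLR entries less than 20 kb apart were joined, a distance chosen after the data were seen, 63 stretches resulted, and 5 of them held 65.3% of MaLR entry counts. The stretch on chromosome 6 (rn5 131592241 to 131605404) was the first, with 22240 counts or 21.4%, on 6 copies of ORR1F, ORR1F-int and MTE-int, all on the plus strand. It held 1273 listed entries of 1 place, MaLR or not, with 128119 counts. The stretch on chromosome 7 (rn5 119863422 to 119869978) had 8 copies of MTEa, MTEa-int, MTD and MTE2a and 13983 counts. Its window held 121 entries with 32111 counts. In both stretches entries outside MaLR copies held the larger part of the counts.

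Single copies on chromosome 7, an MTEa-int copy (rn5 119868715 to 119869513) with 5127 counts and an MTEa copy (rn5 119866427 to 119866757) with 5122, were near equal. The MTEa-int copy stood at 616 ± 10.7 piRNA CPM in HFD and 609 ± 12.9 in CD. It varied less than the ORR1F LTR at rn5 131593954 to 131594327, which stood at 708 ± 123 in HFD and 617 ± 205 in CD. The main entry of the MTEa copy, rat_piRNA_161715, had a log2 fold change of 0.066 (95% interval -0.13 to 0.26). Another MTEa copy, on chromosome 1 (rn5 203684684 to 203684808), held 1 entry, rat_piRNA_71857, at 429 ± 36.5 piRNA CPM in HFD and 481 ± 64.3 in CD (log2 fold change -0.19, 95% interval -0.44 to 0.059). None of the 12 copies overlapped an Ensembl gene.

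**Figure D5:**
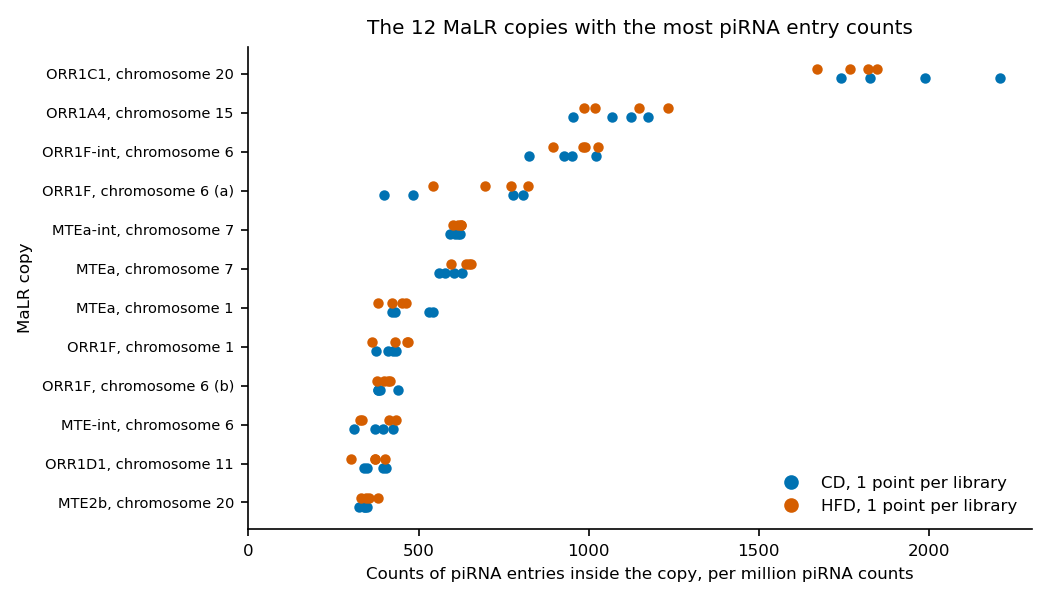
Counts of piRNA entries inside each of the 12 MaLR copies with the most such counts, in piRNA CPM, 1 point per library by diet, with (a) and (b) marking different ORR1F copies on chromosome 6. The ORR1C1 copy stands highest, at 1670 to 2208 piRNA CPM, and HFD and CD libraries overlap in every copy.

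No MaLR entry passed the test for diet. In edgeR's test over the 7818 entries that averaged 1 count or more, 0 of 156 MaLR entries had an adjusted p under 0.05, as for 0% of all entries, and DESeq2 called 0 MaLR entries. At an unadjusted p under 0.05 there were 3, where 2.99% of all entries passed. The median log2 fold change was -0.041 for MaLR entries and -0.0024 for all.

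The direction of the counted reads against the copy could be read from the copy's strand. Of MaLR entries, 822 lay in plus-strand copies, whose counted reads are antisense to the element, and 545 in minus-strand copies, whose reads are sense. Sense reads made up 33.5% ± 1.74 of MaLR entry counts (SD, n = 8) and 35.6% ± 0.997 of those in other repeats. The share was lower on MaLR copies in 7 of 8 libraries, a mean difference of -2.01 percentage points (exact sign-flip permutation p = 0.0156). All 8 libraries read the same copies, so this p covers the spread between libraries and not that between copies. A single copy weighed on the sense share. Without the ORR1C1 copy on chromosome 20, an alternative chosen after the data were seen, the sense share was 20.3% to 23.5%. The difference was then -13.7 percentage points (p = 0.0078 in the same exact test). That copy is on the minus strand, so leaving it out could only lower the sense share. The larger difference and its p therefore do not strengthen the main result. Large plus-strand copies, such as the ORR1A4 copy on chromosome 15 with 8.76% of MaLR entry counts, were not left out in turn. Leaving out such a copy could only raise the sense share. By its counts, leaving out that ORR1A4 copy alone would put the mean sense share above that of other repeats. The sign of the difference under this placement thus rests on single copies, and no test was made without the ORR1A4 copy. The size of the difference also moved with the placement of entries. It was -4.80 percentage points where any overlap with a copy counted, and -24.3 where entries with several places, all inside copies, were counted too (p = 0.0078 in the same exact test for either). Between diets the sense share was 32.7% ± 0.915 in HFD and 34.4% ± 2.07 in CD, a difference of -1.72 percentage points (exact permutation p = 0.171). Without CD replicate 2 it was -2.53 with p = 0.0286 in the exact permutation test, and without the ORR1C1 copy -0.809 with p = 0.286.

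Entry counts were small beside the counts on repeat names. Entries inside ORR1F copies, 295 in 18 copies, held 15349 counts, or 1.01% of the 1525291 counts on ORR1F. For MTEb the figure was 0.0567%, for MTD 0.557% and for MTE2b 2.11%. It was 20.03% for MTEa, 21.8% for MTEa-int and 34.2% for ORR1C1. The 2 tallies differ in strand and in how a read is assigned, so that the percentages set them side by side and are not shares of the same reads. Which ORR1F copies carry the other counts was not analysed here.

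The position of the copies in the genome was read from the annotation. Of MaLR copies 23.4% overlapped the span of an Ensembl gene and 0.140% an exon, against 31.3% and 0.271% of the 3094365 other repeat copies. ORR1F (24.996%) and ORR1F-int (23.6%) lay close to the MaLR value in gene overlap. MTB had the highest share of copies touching an exon, 1.15%. Of 78526 MaLR copies that overlapped 1 gene, 33.7% were in the direction of the gene, 33.4% of LTRs and 37.0% of internal parts. The X chromosome held 4.58% of MaLR copies and 5.70% of the others. These shares describe the annotation, and no test was made on them.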

How the data were processed

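Small RNA and mRNA libraries came from sorted germ cells, and samples were grouped by their labels. The authors deposited raw counts per repeat name, piRNA entry and gene. Per the paper's methods and the file headers, reads were trimmed, aligned to rn5 with Butter and counted with featureCounts 1.4.6 at a mapping quality of at least 1, on either strand for repeats and on the reverse strand for piRNAs. The count column of CD replicate 4 names another library number, so samples follow the file records.

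Members and lists were chosen with earlier results of these data known. Names with a mean count of at least 1 were tested over the whole table with edgeR 4.0.16 (TMM, quasi-likelihood, Benjamini-Hochberg adjusted p under 0.05) in R 4.3.3, and with DESeq2 1.42.0 as an alternative. SE was the log2 fold change divided by the square root of F. Single values were compared by exact permutation over 70 labellings, or by 256 sign flips over 8 libraries. piRNA entries were placed on copies with bedtools 2.31.1, requiring 1 listed place wholly inside a copy. Coordinates are 1-based rn5. Names described singly were those with the smallest p, the 8 with the most counts, the 8 with the most per kb, the most counted of each letter, internal names with a mean count of at least 10, and the 5 most counted MaLR piRNA entries. Further names outside this rule were given values for comparison. The fits were tested on simulated data. No 2 libraries agreed within sampling noise: chi-square over repeat names was at least 7.88 per degree of freedom. A count of 3, the floor used, is at most 1.27 CPM. Intervals cover the spread between libraries. Alternatives were other normalizations, filters and tests, the replicate block, other units and placements, and each library left out. The planned tests of piRNA pathway genes and cell type markers were not run, because 0 of 26560 gene identifiers matched the reference. miRNA counts were not used.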

Additional observations from a re-analysis of the deposited data

Results flagged for a closer look

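Among MaLR names, shares and piRNA entries, 108 sets of 4 libraries of a diet were looked at for a library that stood apart, and 2 had one, where chance gives about 5% of sets. ORR1A4-int, the internal part of ORR1A4, stood at 1043 CPM in CD replicate 4, against 962 to 968 CPM in the other CD libraries. ORR1D1-int stood at 3084 CPM in HFD replicate 1, against 2790 to 2823 CPM in the other HFD libraries. Neither name passed the test for diet.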

How the results depend on the processing

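Of 202 alternative values for 16 results, 182 kept their direction and their side of the threshold, 19 turned in sign and 1 newly passed it. The cause was not tested except where the alternative itself removes names or copies. The MaLR share difference turned to -0.146 percentage points without the 10 repeat names with the most counts, to -0.149 without ORR1F and ORR1F-int, and lay between -0.129 and 0.150 with each library left out. The internal share difference turned to 0.0662 without ORR1F and ORR1F-int (range with each library left out -0.186 to -0.0721). The log2 ratio of internal to LTR levels turned to 0.522 per listed copy, that against MLT and MST names to 3.25 as a median over names, and that against RMER and RLTR names to -0.560 without ORR1F and ORR1F-int. For ORR1F the log2 fold change was -0.0024 without CD replicate 4 and up to 0.079 without HFD replicate 1. For ORR1F-int it was -0.00021 with no filter, -0.0066 with repeat plus piRNA totals, and with each library left out -0.032 to 0.025 (-0.011 without HFD replicate 2, -0.0063 without HFD replicate 4, -0.016 without CD replicate 3, -0.032 without CD replicate 4). The share of MaLR piRNA entries differed by -0.0109 to 0.0120 with each library left out. Their sense share differed by -2.53 to -0.872 between diets, past the threshold without CD replicate 2, where the exact permutation p was 0.0286.

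Same-numbered HFD and CD libraries had correlations of 0.165, 0.0732, 0.0528 and -0.0088 of their deviations from the diet means. Their mean was 0.0706, against -0.0235 for libraries of other numbers. These values are low, and 4 pairs cannot settle whether the numbers pair the libraries. With the replicate block 0 MaLR names and 0 letter groups were called, the share difference was 0.0381, the internal share difference -0.124, the piRNA share difference 0.000996 and the sense share difference -1.72, and no call changed. The smallest p of 4 pairs is 0.125. Tests of piRNA pathway genes were not run. At this depth changes of internal names with few counts, such as MTEb-int, could not be resolved.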
